A study of Drosophila melanogaster with 2 samples.

Results

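The mitochondrial ribosomal protein genes, taken as the protein-coding genes of the Ensembl annotation whose symbol begins with mRpL or mRpS, numbered 73 of 13968 protein-coding genes. Of these, 47 carried a large subunit symbol (mRpL) and 26 a small subunit symbol (mRpS). A reproducible peak of the zinc finger protein BuGZ lay within 250 bp of a transcription start site (TSS) at 15 of the 73. In 13 of these 15 the same summit also lay within 250 bp of the start of another gene.

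Mitochondria keep a small genome of their own, and the ribosomes that translate it are built from RNA made in the organelle and from proteins encoded in the nucleus, made in the cytosol and imported. The large subunit joins amino acids at the peptidyl transferase centre and lets the chain leave through an exit tunnel. The small subunit reads the messenger RNA. Some of these proteins have bacterial counterparts and keep their numbers, while others were added to the ribosome of mitochondria. The products of mitochondrial translation are subunits of the respiratory chain and of ATP synthase. BuGZ (CG17912) is a zinc finger protein known for binding the spindle checkpoint protein Bub3.

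The data were chromatin immunoprecipitation sequencing (ChIP-seq) peak lists from 1 group with 2 replicates: whole, mixed-sex Drosophila melanogaster embryos of 0 to 16 h from a transgenic line that expresses BuGZ fused to GFP at its C terminus. The labels name no promoter for the transgene and no untagged group, and a comparison of conditions was not possible. The antibody label of both libraries names CG17912, and the deposited read-me texts and labels describe regions called against a control. The description of both libraries, however, calls them input controls, and this conflict could not be settled from the sources used here. In material pooled from whole embryos, binding in few cells and weak binding in many cannot be told apart, and the lists hold no expression values by which cell types could be checked. Of the 4 lists, 3 held 30000 candidate regions each (replicate 1, replicate 2, and both pooled). The pooled candidates are labelled as peaks and background, so a candidate need not be a bound region. The other list held the 2413 regions that passed the authors' irreproducible discovery rate threshold, called reproducible here. A region in it need not be among the top 2413 of each replicate. Of 15 family members with such a peak, 6 were in the top regions of both. These 2413 were the 2413 top regions of the pooled list by the authors' signal value, whose scale is not stated. That value therefore served to rank regions within a list, where rank 1 is the strongest. Read depth is unknown.

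The arrangement of these promoters is best seen in the DNA between the start of the mitochondrial ribosomal protein gene and the start of its divergent neighbour, a gene transcribed away from it on the opposite strand. Each line below runs along the strand of the mitochondrial gene, from the base after the neighbour's start to the base before its own, in dm6 coordinates. The first 5 are shown because a reproducible BuGZ summit lay inside this DNA or at its edge, and mRpL48 because its start sites stood 41 bp apart. Capitals mark matches to a motif: in mRpS10 the word GTATTTTT of promoter motif 6, and in mRpL48 promoter motif 1 on the other strand.
mRpS10 and Art3, chr3R:15229409-15229664, plus strand: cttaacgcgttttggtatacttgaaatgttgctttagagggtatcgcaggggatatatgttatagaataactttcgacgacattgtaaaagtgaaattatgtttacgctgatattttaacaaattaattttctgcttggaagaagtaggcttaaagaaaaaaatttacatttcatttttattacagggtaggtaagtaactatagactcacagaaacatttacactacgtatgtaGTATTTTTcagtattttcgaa
mRpL24 and betaggt-I, chr2L:4945362-4945578, minus strand: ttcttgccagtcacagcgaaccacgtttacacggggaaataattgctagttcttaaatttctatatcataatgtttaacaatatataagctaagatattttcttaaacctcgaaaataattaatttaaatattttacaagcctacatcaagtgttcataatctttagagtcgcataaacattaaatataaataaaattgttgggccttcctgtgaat
mRpS11 and Ns1, chr3R:17072676-17072731, plus strand: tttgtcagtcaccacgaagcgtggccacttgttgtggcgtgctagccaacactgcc
mRpL55 and ATPsynD, chr3R:19094906-19094999, minus strand: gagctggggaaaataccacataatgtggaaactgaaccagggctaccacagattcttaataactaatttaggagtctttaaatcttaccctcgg
mRpL2 and FoxK, chr3L:11120784-11120846, plus strand: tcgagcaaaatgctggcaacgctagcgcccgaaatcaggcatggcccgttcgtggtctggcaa
mRpL48 and CG17660, chr2L:1710422-1710461, plus strand: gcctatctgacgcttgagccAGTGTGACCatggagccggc

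The reproducible summit was base 100 of 256 in the mRpS10 line, base 46 of 217 in the mRpL24 line, base 24 of 56 in the mRpS11 line and base 32 of 94 in the mRpL55 line. In each of these 4 it was nearer to the neighbour than to the mitochondrial gene. In the mRpL2 line it lay at the left edge, 1 bp into FoxK. At mRpL48 it lay beyond the right end, 2 bp into mRpL48.

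Mitochondrial ribosomal protein genes carried a reproducible promoter peak in 15 of 73 cases, or 20.5% (95% Wilson interval 12.9% to 31.2%). The share over all protein-coding genes was 11.6%. This order turned where each peak was given to its nearest gene alone (6.85% of members, 9.13% of protein-coding genes). It also turned where peaks in shared promoters were not counted, still over all members and all protein-coding genes (2.74% and 6.21%). By construction this drops shared peaks, which were 13 of the 15 at members and 46.5% over protein-coding genes with a peak. The intervals here and below cover counting error only and take genes as units, although genes that share a promoter are not independent. Most members without a peak still had a region in the pooled list, which by its label also holds background and so does not by itself show BuGZ signal. A pooled candidate region lay within 250 bp of a start site at 55 of 73 members (75.3%, interval 64.4% to 83.8%), where the share over protein-coding genes was 47%. No candidate in any list was found at 8 members (11%), against 43.2% of protein-coding genes. Among genes with a pooled candidate, the share that reached the reproducible list was 15 of 55 (27.3%, interval 17.3% to 40.2%), and 24.7% over protein-coding genes. The members thus stood above the background in having any candidate, while the step from candidate to reproducible peak was passed at about the background share.

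**Figure D1:**
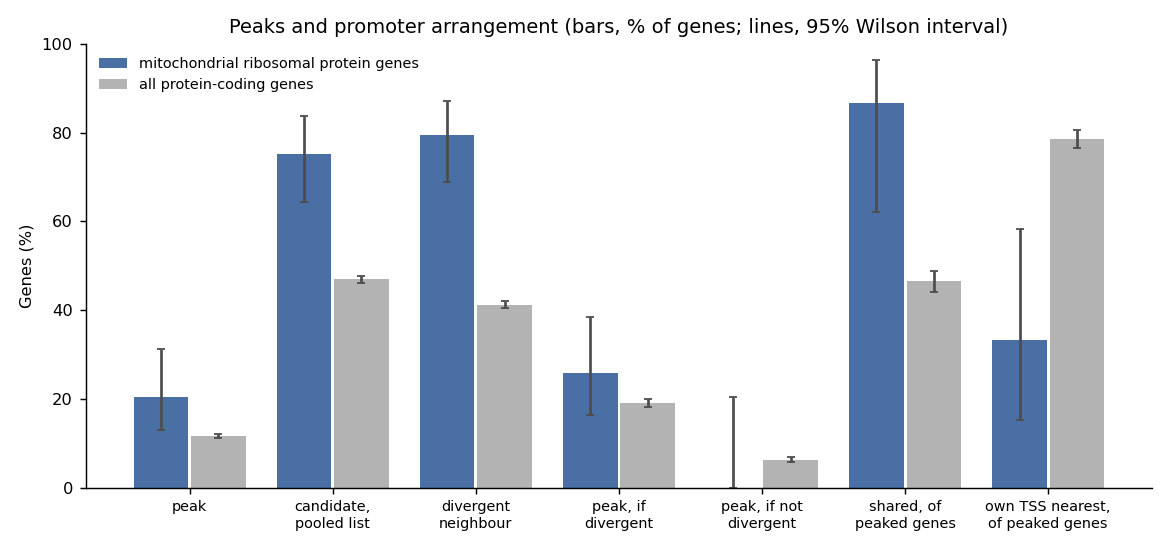
Shares of genes, in percent, for mitochondrial ribosomal protein genes (blue) and all protein-coding genes (grey), with lines for 95% Wilson intervals. Members had a divergent neighbour in 79.5% of cases, against 41.2% of protein-coding genes, and their own start was nearest to the summit at 33.3% of peaks, against 78.7%.

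Both subunits were represented. Peaks lay at 11 of 47 large subunit genes (23.4%) and at 4 of 26 small subunit genes (15.4%). Members numbered as in the bacterial ribosome had peaks at 10 of 42 (23.8%) and the others at 5 of 31 (16.1%), a split added after the values were seen. By chromosome, peaks were found at 1 of 11 members on X, 4 of 12 on 2L, 3 of 12 on 2R, 2 of 17 on 3L and 5 of 21 on 3R. None of these differences was tested.

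The strongest member peak was at mRpL41, which encodes a protein of the large subunit and had a signal value of 966. It ranked 5 of 2413 in the reproducible list, 9 in replicate 1 and 2 in replicate 2. The summit, chr2R:15217754, lay 137 bp upstream of the start in the reproducible list and in replicate 1, and 139 bp upstream in replicate 2. No other gene started within 250 bp of it, and the divergent neighbour CG8079 started 762 bp from mRpL41. By this 250 bp limit a single promoter was seen at 1 other member, mRpL1. Its bacterial counterpart forms the mobile stalk at the exit site for transfer RNA. The divergent neighbour of mRpL1, CG9626, started 462 bp from it. The term depends on the limit: with a wider one, all 15 member summits, including those of mRpL41 and mRpL1, had the start of another gene nearby. The mRpL1 summit, chr3R:8301391, lay 49 bp upstream of the start. Its ranks were 1899 in the reproducible list, 2602 in replicate 1 and 4747 in replicate 2, well below those of mRpL41.

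Small subunit genes with a peak were mRpS10, mRpS16, mRpS2 and mRpS11. mRpS10, a protein of the small subunit's head, had a signal value of 774 and ranks of 11 in the reproducible list, 14 in replicate 1 and 9 in replicate 2. Its interval, chr3R:15229411-15229650, fell wholly between mRpS10 and Art3, an arginine methyltransferase gene. mRpS16 ranked 904 in the reproducible list, 820 in replicate 1 and 3324 in replicate 2, in a promoter shared with cg, which encodes the zinc finger protein Combgap. mRpS2 ranked 1489, 1384 and 2006 in the same lists and shared its promoter with Mon1, which encodes a subunit of an exchange factor for an endosomal Rab GTPase. mRpS11, a protein of the platform where messenger RNA and transfer RNA meet, ranked 2159, 1589 and 4654 and shared with Ns1, a nucleolar GTPase gene. Of the 4, mRpS10 stood far ahead, and mRpS16 and mRpS11 were much higher in replicate 1 than in replicate 2.

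Among the genes with a peak, mRpL23 and mRpL24 encode large subunit proteins that line the exit tunnel, and both peaks were strong. mRpL22, also a tunnel gene, had no reproducible peak and ranked 3395 in the pooled list. Tunnel genes were not listed in full, and the family was not compared by site in the ribosome. mRpL23 had a signal value of 367 and ranks of 104 in the reproducible list, 89 in replicate 1 and 118 in replicate 2. Its summit lay 31 bp downstream of the nearest of its 3 start sites and 81 bp upstream of CG9004. mRpL24 had a signal value of 267 and ranks of 230, 224 and 324 in those lists, in a promoter shared with betaggt-I, which encodes a subunit of an enzyme that attaches lipids to proteins. These ranks place both genes, with mRpL41 and mRpS10, well inside the top 2413 of each replicate.

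Weaker peaks lay at 3 genes whose proteins sit near the peptidyl transferase centre. Only genes with a peak are grouped here, and the family was not compared by site in the ribosome. mRpL2 ranked 1794 in the reproducible list, 2221 in replicate 1 and 1576 in replicate 2, and shared its promoter with FoxK, a forkhead transcription factor gene. mRpL16 ranked 1687, 7128 and 707 in those lists and shared with trr, a histone methyltransferase gene. mRpL27 ranked 1779, 1523 and 5770 and shared with CG15435. Of these 3 genes, mRpL2 lay within the top 2413 of both replicates, mRpL16 of replicate 2 alone and mRpL27 of replicate 1 alone.

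The remaining peaks were at large subunit genes whose proteins were added to the ribosome of mitochondria. mRpL53 ranked 1158 in the reproducible list, 522 in replicate 1 and 3687 in replicate 2. It starts at the same base as CG33155, and AGO1, the Argonaute gene of the microRNA pathway, starts 170 bp away on the other strand. mRpL55 ranked 2273, 3809 and 4288 and shared its promoter with ATPsynD, a gene of mitochondrial ATP synthase. mRpL37 ranked 2295, 1566 and 2687. mRpL48 ranked 2365, 2220 and 2939 and shared with CG17660. These 4 were in the lower part of the reproducible list or differed widely in rank between the replicates.

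**Figure D2:**
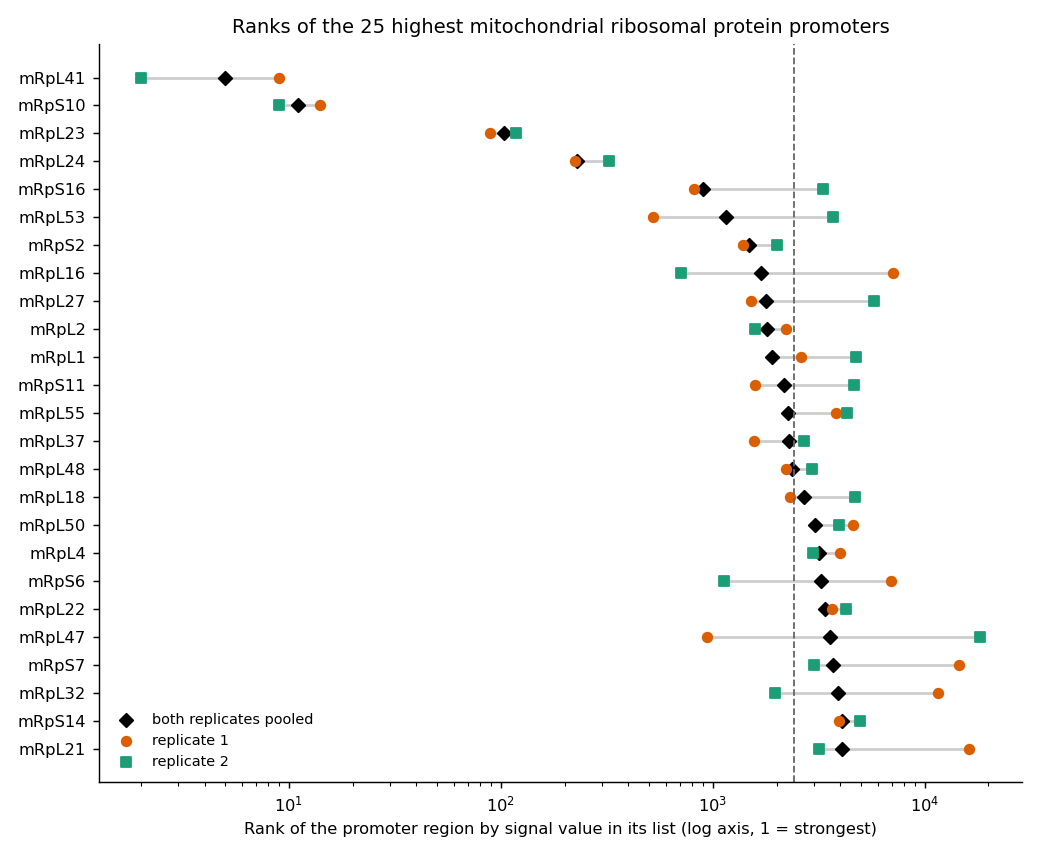
Rank by signal value (log axis, 1 the strongest) of the promoter region of the 25 highest members in the pooled list (diamonds), replicate 1 (circles) and replicate 2 (squares). The dashed line is rank 2413, where the reproducible list ends; mRpL48 at 2365 is the last member inside it and mRpL18 at 2684 the first outside.

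In signal value the 15 members ranged from 102 to 966 with a median of 117, and the protein-coding genes with a peak had a median of 136. The first 4 members thus lay far above the middle of the list and most of the others below it. Within the 2413 top regions of replicate 1 there were 15 members (20.5%, background 11.2%), and within those of replicate 2 there were 13 (17.8%, background 11.4%). In the top regions of both there were 6 members (8.22%, interval 3.82% to 16.8%; background 6.72%), which was close to the background share. These 6 were mRpL41, mRpS10, mRpL23, mRpL24, mRpS2 and mRpL2. Of the other 9 genes with a reproducible peak, the top regions of replicate 1 alone held 6 and those of replicate 2 alone held 1, and mRpL1 and mRpL55 were in those of neither. A better rank in replicate 1 than in replicate 2 was found for 11 of the 15 members with a peak and for 11 of the 30 members that had no peak but a candidate in both replicates. Over protein-coding genes in both lists it was 2389 of 4651.

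Which gene a shared peak belongs to could not be read from distance alone. The 13 shared summits made 86.7% of the 15 (interval 62.1% to 96.3%), where 46.5% of protein-coding genes with a peak had a summit near another gene. The nearest start was the member's own at 5 of the 15 (33.3%, interval 15.2% to 58.3%), namely mRpL41, mRpL23, mRpL16, mRpL1 and mRpL48. The share was 78.7% over protein-coding genes with a peak. Of the 13 shared summits, 10 lay nearer to the neighbour and 3 nearer to the member. Each of the 13 had a protein-coding partner on the opposite strand.

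The summit was upstream of the member's start at 13 of 15 (86.7%), a share near the 81.1% over protein-coding genes with a peak. The median position was 110 bp upstream of the member's start (position -110, range -216 to 31), and 64 bp upstream (position -64) over protein-coding genes with a peak. The member nearest to the window's edge was mRpL27 at -216, and the first one outside was mRpL11, whose start was 277 bp from a summit near HtrA2. The replicates' own summits moved by 0 to 111 bp from the reproducible one. Taken from replicate 1 the member's start was nearest at 7 of 15, and from replicate 2 at 6 of 15. At mRpS10, for example, the summit of replicate 1 was 106 bp from Art3 and 151 bp from mRpS10, whereas that of replicate 2 was 121 bp from mRpS10, which was then the nearest. At mRpL24, mRpS16, mRpL27, mRpL2 and mRpS11 the neighbour was nearest in both replicates, and at mRpL41, mRpL23 and mRpL1 the member was. The remaining 7 changed their nearest gene between replicates; at mRpL53 the nearest start in replicate 1 was the one it shares with CG33155.

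**Figure D3:**
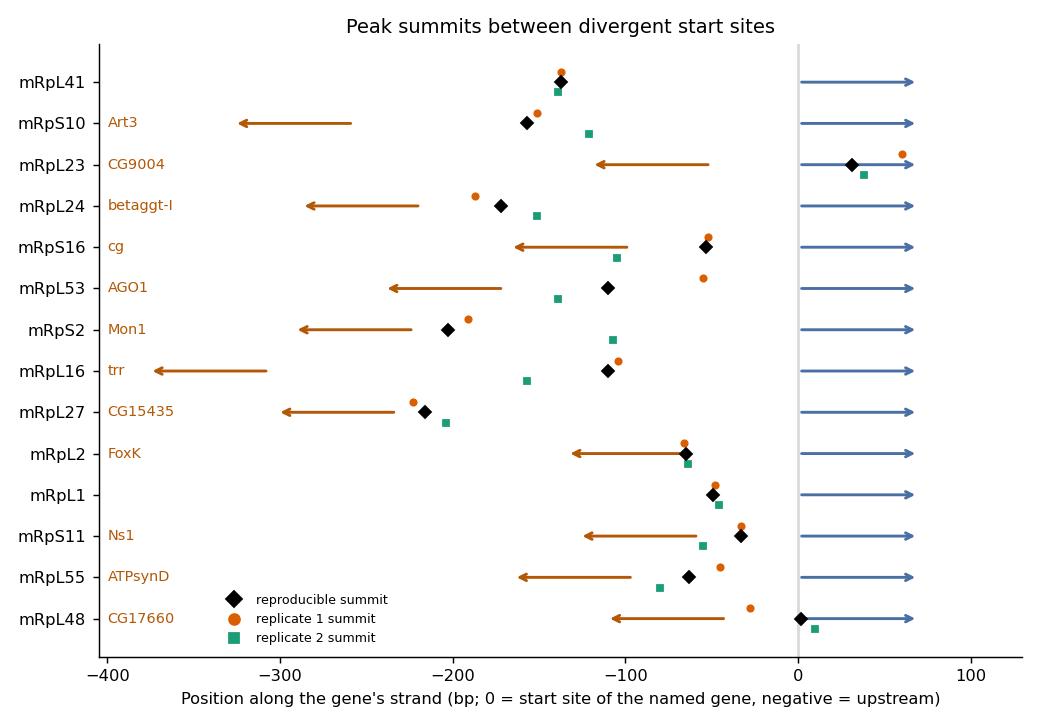
Position in bp of the reproducible summit (diamond) and the summits of replicate 1 (circle) and replicate 2 (square) along the strand of each member with a peak other than mRpL37, whose start nearest to the summit is at 0 (blue arrow, direction of transcription). Brown arrows are divergent neighbours within 250 bp of the summit. Most summits sit between 2 start sites. Positions of the reproducible summits shown range from -216 at mRpL27 to 31 at mRpL23, where the summit is downstream of the start. Those of the replicate summits shown range from -223 at mRpL27 to 60 at mRpL23, both in replicate 1.

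Head-to-head pairing was common to the family whether or not BuGZ was there. By annotation alone, 58 of 73 members (79.5%, interval 68.8% to 87.1%) had a divergent neighbour whose start lay within 1000 bp, against 41.2% of protein-coding genes. All 58 neighbours were protein-coding and stood upstream. The 15 members with a peak were all among these 58 (25.9%, interval 16.3% to 38.4%), where the share over protein-coding genes with such a neighbour was 19.1%. Of the 15 members without one, 0 had a peak, which allows a share of up to 20.4% by the Wilson interval; the share over protein-coding genes without one was 6.36%. Candidate regions did occur at both kinds: at 45 of 58 members with a divergent neighbour (77.6%, background 64.9%) and at 10 of 15 without (66.7%, background 34.4%). Against genes of the same arrangement, the gap between members and background in reproducible peaks was thus smaller than over all genes.

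Within the divergent pairs, members with a peak had closer start sites, as did protein-coding genes with a peak. The median distance between start sites was 170 bp at the 15 members with a peak and 328 bp at the 43 divergent members without. The same distance was 243 bp at protein-coding genes with a peak and 294 bp over all divergent protein-coding genes. Of 25 members paired within 250 bp, 10 had a peak (40%, interval 23.4% to 59.3%), where the share over protein-coding genes so paired was 24.7%. Of 33 members paired more widely, 5 had one (15.2%, interval 6.65% to 30.9%), which was at the background of 15.3%. A narrow pair puts 2 starts into the window of 1 summit, and the part of this in the result was not tested.

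Below the reproducible threshold, 40 members had a pooled candidate, with ranks from 2684 to 28648. Over all 55 members with a candidate the median pooled rank was 4409, and 5746 over protein-coding genes with one. In replicate 1 the medians were 4612 for members and 5541 for protein-coding genes, and in replicate 2 they were 4504 and 6033. The 10 best of the 40 were mRpL18 (rank 2684), mRpL50 (3048), mRpL4 (3184), mRpS6 (3259), mRpL22 (3395), mRpL47 (3579), mRpS7 (3694), mRpL32 (3905), mRpS14 (4063) and mRpL21 (4096). mRpL18 and Taz, the tafazzin gene for cardiolipin remodelling, start 20 bp apart, and mRpS7 and the cell cycle kinase gene Cdk1 start 400 bp apart. mRpL22 encodes a tunnel protein, like mRpL23 and mRpL24, but had no reproducible peak.

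The replicates disagreed widely for some of these weaker regions. mRpL47 ranked 940 in replicate 1 and 18340 in replicate 2, and mRpL21 ranked 16215 and 3181. In all, 9 members without a reproducible peak were in the top 2413 of 1 replicate. In replicate 1 these were mRpL47, mRpL13 (rank 1664) and mRpL18 (2307). In replicate 2 they were mRpL20 (1044), mRpS6 (1131), mRpL11 (1208), mRpL15 (1821), mRpL32 (1974) and mRpL19 (2089). mRpL11 encodes a protein at the base of the stalk that recruits translation factors. A candidate in a replicate list and none in the pooled one was found at 10 members, each of them in replicate 2. mRpL20, already named, was among them. Of these 10, mRpL44 also had one in replicate 1. The nearest pooled summit lay just outside the window at mRpL20 (252 bp), mRpS31 (259 bp), mRpL49 (263 bp) and mRpL44 (270 bp). At the others it was 422 bp or more away. The 8 members with no candidate were mRpL17, mRpL30, mRpL39, mRpL40, mRpS21, mRpS26, mRpS33 and mRpS34. A region missing from a list may only have ranked lower than its last entry.

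The promoters of the family shared a sequence feature that had no part in how the genes were chosen. The E-box CAGCTG, a palindrome, occurred from 250 bp before to 50 bp after the start of 40 of 73 members (54.8%, interval 43.4% to 65.7%). Over protein-coding genes the share was 17.7%, and 24.6% over those with a peak. It did not go with the peak inside the family: 8 of 15 members with a peak (53.3%) and 32 of 58 without (55.2%) held it. Matches gathered at the start itself. Within 60 bases around it, a window chosen after the values were seen, 28 of 73 members (38.4%) and 6.3% of protein-coding genes had a match. These were 7 of 15 members with a peak (46.7%) and 21 of 58 without (36.2%). A match is a description of letters and not a bound site.

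The windows below show these letters at 11 members, from 40 bases before the start to 30 bases from it, in dm6 coordinates and along each gene's strand. Base 41 is the start site. Capitals mark CAGCTG, the DNA replication-related element (DRE) TATCGATA, and motif 1 GGTCACACT or its complement. The first 6 genes had a reproducible peak and the other 5 did not.
mRpL24, chr2L:4945332-4945401, minus strand: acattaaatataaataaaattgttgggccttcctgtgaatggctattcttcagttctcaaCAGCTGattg
mRpS2, chr2L:4850390-4850459, minus strand: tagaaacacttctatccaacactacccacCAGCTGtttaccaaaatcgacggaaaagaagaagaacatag
mRpL2, chr3L:11120807-11120876, plus strand: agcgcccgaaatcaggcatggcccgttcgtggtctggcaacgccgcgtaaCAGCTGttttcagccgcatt
mRpL55, chr3R:19094876-19094945, minus strand: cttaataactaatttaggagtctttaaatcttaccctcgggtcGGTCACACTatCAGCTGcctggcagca
mRpL48, chr2L:1710422-1710491, plus strand: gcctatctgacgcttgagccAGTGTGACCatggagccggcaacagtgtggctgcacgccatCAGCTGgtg
mRpL27, chr2L:4459573-4459642, minus strand: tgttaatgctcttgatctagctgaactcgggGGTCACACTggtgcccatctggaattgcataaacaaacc
mRpL11, chr3R:14511798-14511867, plus strand: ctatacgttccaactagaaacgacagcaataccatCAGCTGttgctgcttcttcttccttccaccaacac
mRpL35, chr3R:22023487-22023556, plus strand: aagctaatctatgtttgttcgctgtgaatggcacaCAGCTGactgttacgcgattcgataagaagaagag
mRpL46, chr3L:1777399-1777468, plus strand: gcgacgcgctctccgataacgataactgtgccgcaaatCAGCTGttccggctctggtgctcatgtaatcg
mRpL32, chr3R:31252832-31252901, plus strand: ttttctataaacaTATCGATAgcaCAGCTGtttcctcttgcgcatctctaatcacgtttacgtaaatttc
mRpL17, chr3L:264739-264808, plus strand: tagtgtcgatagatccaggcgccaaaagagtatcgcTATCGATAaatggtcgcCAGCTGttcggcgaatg

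The E-box began 5 bases before the start in mRpL11 and mRpL35 and 2 bases before it in mRpL46. It began 11 bases before the start in mRpS2, 10 bases after it in mRpL2 and 20 bases after it in mRpL24. Of the windows shown, those of mRpL17 and mRpL32 held both the DRE and the E-box. From 250 bp before to 50 bp after the start, mRpL19, mRpS18B and mRpS25 also held both. None of these genes had a reproducible peak, and mRpL17 had no candidate in any list.

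**Figure D4:**
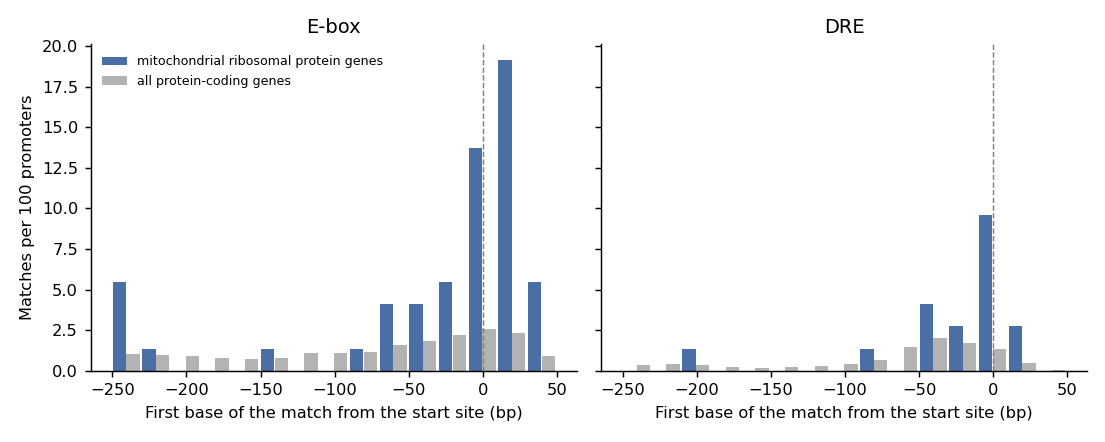
Number of matches per 100 promoters in bins of 20 bp by distance of the match's first base from the start site, for mitochondrial ribosomal protein genes (blue) and all protein-coding genes (grey). The members' fullest E-box bin began at 10 bp, with 14 matches over 73 members and 326 over 13968 protein-coding genes, whose own fullest bin began at -10 bp with 358. The members' fullest DRE bin began at -10 bp, with 7 matches in members and 189 in protein-coding genes.

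The DRE, the site of the factor DREF, was also more frequent in the family but lay mostly at members without a peak. TATCGATA occurred in 15 of 73 promoters (20.5%, interval 12.9% to 31.2%), against 9.23% of protein-coding promoters and 15.2% of those with a peak. Of the 15 members that held it, 1 had a reproducible peak, mRpL16. The shares were 6.67% of members with a peak (interval 1.19% to 29.8%) and 24.1% of members without (interval 15% to 36.5%), and these intervals overlap. The shorter core ATCGAT, which lies inside the DRE, gave 2 of 15 members with a peak and 25 of 58 without, against 23% of protein-coding promoters.

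Motif 1, GGTCACACT on either strand, is the site of the pausing factor M1BP. It occurred at 4 of 15 members with a peak (26.7%, interval 10.9% to 52%), at 4 of 58 without (6.9%, interval 2.71% to 16.4%), at 6.06% of protein-coding promoters and at 10.4% of those with a peak. The 4 were mRpL27, mRpL48, mRpL55 and mRpS16. Its inner part GTCACACT was found in the same number of members in each class. The match began between 20 bases before and 3 bases after the start in the members with a peak (positions -20, -19, -9 and 3), and at 23, 23, 26 and 38 bases after it in those without. These are counts of 8 genes in all, and the intervals overlap.

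The other words searched included both common and rare ones. The word GTATTTTT of motif 6 was in 3 of 15 members with a peak (mRpL41, mRpS10 and mRpL1), 6 of 58 without and 7.32% of protein-coding promoters. GAGAG, the core of GAGA factor sites, was in 11 of 73 members (15.1%, interval 8.63% to 25%) and in 30.2% of protein-coding promoters. It was in 5 of 15 members with a peak (33.3%, interval 15.2% to 58.3%) and 6 of 58 without (10.3%, interval 4.83% to 20.8%), and these intervals overlap. CGATA, a BEAF-32 word that lies inside the DRE, was in 43 of 73 members (58.9%) and 47.4% of protein-coding promoters. The Zelda word CAGGTAG was found in 0 of 73 members and 1.68% of protein-coding promoters. CTTTTC, searched on the sense strand within 10 bp of the start as the initiator of cytosolic ribosomal protein genes, was found in 0 members and in 0.759% of protein-coding promoters. For both, 0 of 73 allows a share of up to 5% by the Wilson interval.

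**Figure D5:**
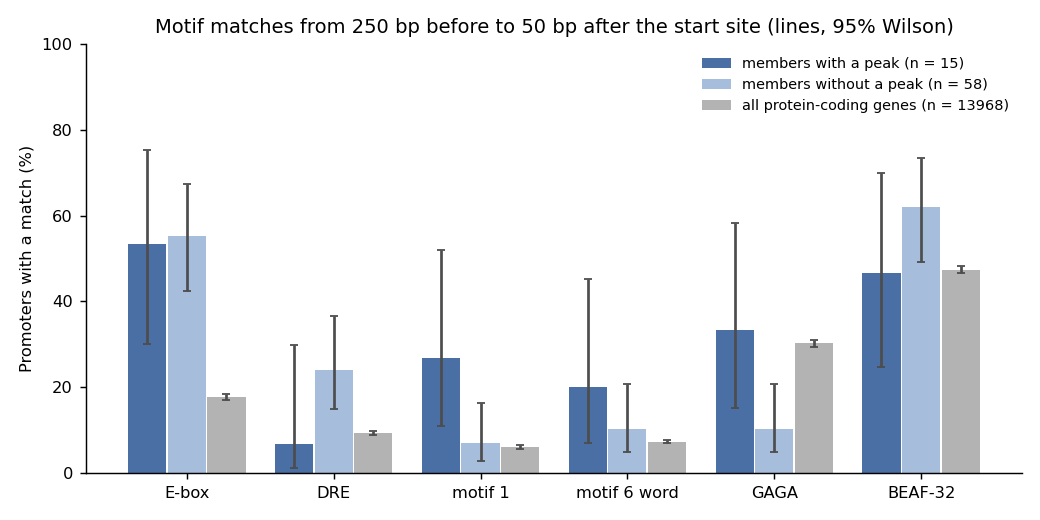
Percent of promoters with a match from 250 bp before to 50 bp after the start, for members with a peak (dark blue), members without (light blue) and all protein-coding genes (grey), with lines for 95% Wilson intervals. The E-box stands at 53.3% and 55.2% in the members, against 17.7% of protein-coding promoters, while the DRE stands at 6.67%, 24.1% and 9.23%.

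Other genes of mitochondrial gene expression had peaks at about the background share. Over 4 lists, 4 of 37 genes found in the annotation (10.8%, of 44 symbols listed) had a reproducible promoter peak, against 11.6% of protein-coding genes, and 20 of 37 had a pooled candidate, a share near the 47% over protein-coding genes. Among 2 mitochondrial ribosomal proteins with other symbols, 1 had a peak: tko, the technical knockout gene for a small subunit protein, with ranks of 1452 in the reproducible list, 1600 in replicate 1 and 2127 in replicate 2. The other, bonsai, ranked 3105 in the pooled list. Of 15 mitochondrial aminoacyl-tRNA synthetases 2 had a peak, PheRS-m (rank 1364) and LeuRS-m (rank 2218), and the LeuRS-m summit also lay 110 bp from Dhc64C. Of 11 genes for mitochondrial transcription and ribosome assembly 1 had a peak, mTerf5 (rank 1894), whose summit also lay 82 bp from Non3. Of 9 mitochondrial translation factors 0 had a peak and 4 had a pooled candidate, also near that 47%.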

How the data were processed

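Peak lists of 2 ChIP-seq libraries were used. Per the deposited read-me texts and the labels, the authors called candidate regions per replicate and on pooled reads against a control, in dm6 (Release 6); the aligner and caller were not given in the sources used here. The signal value deposited by the authors has no stated scale and ranked regions within a list only. The summit was the interval start plus the deposited offset, and was the middle of the interval for 76.8% of reproducible regions. Coordinates are 1-based. Genes and start sites came from Ensembl release 115, without transposable elements, and sequences from the RefSeq genome of Release 6. Each gene with a start within 250 bp of a summit was given the peak, so neighbours share peaks. Motifs were searched at the start with most transcripts, a choice made after values for any start had been seen. Replicate summits were matched within 200 bp. One neighbouring gene is not reported here.

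The members, gene lists and motifs were chosen with earlier results of these data known. Named genes were every member with a peak and its partners, the 10 best candidates without one, members in the top regions of 1 replicate, members with no candidate, and listed genes with a peak; genes in the displayed sequences and in the closing section were chosen after their values were seen. Shares carry 95% Wilson intervals, and no test was run. The labels give replicate numbers, and nothing more says whether the embryos were collected separately. The assignment was tested on simulated data. Alternatives were other windows, assignments, lists, backgrounds and each replicate alone. Python 3.11.15, pandas 2.3.3, numpy 2.4.6 and statsmodels 0.14.6 were used.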

Additional observations from a re-analysis of the deposited data

How the results depend on the processing

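The count of 15 members with a reproducible promoter peak became 7 with a 100 bp window, 9 where the interval had to cover a start, 5 where each peak went to its nearest gene, 6 in the stronger 50% of the list, 29 with 2 times as many pooled regions, and 2 without shared promoters, the last added after the data were seen. Each replicate's own top regions gave 13 to 15. The difference from the protein-coding share, 8.94 percentage points, turned to -2.28 by nearest gene and to -3.47 where peaks in shared promoters were not counted. It was -6.36 among genes without a divergent neighbour, and 6.43 to 9.32 in single replicates. It was 2.16 at 100 bp, 3.27 with the interval over a start, 2.18 in the stronger 50%, 18.97 with 2 times as many regions, 2.57 among genes with a pooled candidate and 6.77 among those with a divergent neighbour.

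Members with a candidate numbered 35 at 100 bp and 50 to 59 by replicate. Shared promoters numbered 10 to 14 by replicate, and peaks nearest to the member's own start 6 to 7. With the neighbour's start within 100 bp of the summit, shared promoters numbered 12 of 15, and with a limit wider than 250 bp they numbered 15 of 15. Members with a divergent neighbour within 250 bp numbered 25. The median summit position was -63 over pooled candidates and -139 to -83 by replicate. Within 100 bp of the summit, for genes with a peak, the difference between members and protein-coding genes was -4.07 percentage points for the DRE, -15.54 for its core and -6.02 for CGATA. Each was the reverse of the value over whole promoters of all genes. Over whole promoters of genes with a peak, members were also lower: 6.67% and 15.2% for the DRE, 13.3% and 29.4% for its core, 46.7% and 57.7% for CGATA. The difference near the summit was -4.0 for GAGAG and 21.06 for the E-box. With any annotated start it was -2.3 for CAGGTAG and -1.15 for CTTTTC. The other mitochondrial genes with a peak numbered 2 to 4 by replicate. The cause of these changes was not tested beyond what each setting does by construction. Of 74 alternative values, 54 were counted as kept. They kept their direction and stayed within the counting interval or, for counts, near the value reported. For the median summit position the limit was the standard deviation of the replicate medians. The counting interval is wide: share differences of 2.16 and 18.97 were both counted as kept beside 8.94.

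No paired analysis was possible because there was 1 group. Without depth, without control samples of their own and with 2 replicates, an absent peak limits nothing but rank, and weak regions are uncertain.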

Other observations

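Reproducible peaks outside the promoter window lay near several members that had none of their own. The strongest was between mRpS23, a small subunit gene, and CenG1A, with a signal value of 530 and rank 32: its summit was 70 bp from CenG1A and 422 bp from mRpS23. The summit near mRpL11, rank 1660, was nearest to HtrA2, a mitochondrial protease gene, and 277 bp from mRpL11. That near mRpS17, rank 2120, lay 25 bp from Nop60B, a pseudouridine synthase gene. In these 3 head-to-head pairs the neighbour had the peak within 250 bp and the member did not. Downstream of mRpL27, whose own promoter peak ranked 1779, a stronger one of rank 142 lay 6 bp from RpL27A, a cytosolic ribosomal protein gene. A peak of rank 622 within 2000 bp of the mRpL50 gene lay 3 bp from RpL18, another cytosolic ribosomal protein gene. None of the peaks found beyond the promoter windows lay within a member's gene body.

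Words of 6 bases within 50 bp of the summit were also counted, after the data were seen. All words were ranked by the difference between 1287 promoter peaks of other genes and 1772 promoter candidates of the lower-ranked 50% of the pooled list, and then looked up at the members. The second by this measure, ACACTG, was at 4 of 15 member peaks and 5 of 45 member candidates below the threshold, and at 15.6% of the other peaks and 7.45% of the low candidates. CAACAC, the seventh, was at 3 of 15 member peaks and 1 of 45 member candidates, and at 13.4% of the other peaks and 7.28% of the low candidates. TTAAAA, the first, was at 4 of 15 member peaks and 11 of 45 member candidates, and at 20.6% of the other peaks and 12.1% of the low candidates. TATCGA, the sixth and part of the DRE, was at 0 of 15 member peaks and 11 of 45 member candidates, but at 15.7% of other peaks and 8.97% of low candidates. CGATAG, the fourth, AAATAT, the fifth, and ATTAAA, the ninth, were likewise at a smaller share of member peaks than of member candidates: 0 of 15 and 7 of 45, 4 of 15 and 14 of 45, and 2 of 15 and 9 of 45. With 15 member peaks these are descriptions of few sequences, and no test was made.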
